A study of Mus musculus with 18 samples.

Results

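Nova1 and Nova2 are paralogous genes, and both were followed by their gene symbols in the deposited tables: 2 of the 23038 genes of the count table, and every row of either gene among 1991 alternative splicing events. Nova1 held 7 of these events and Nova2 held 0. The RNA came from mice of the CD1 background at embryonic day 18.5. Cortex was taken from 3 Nova2-/- mice and 3 wild-type littermates (replicates 1 to 3), and from 3 Nova1-/- mice (replicates 1 to 3) and 3 wild-type littermates (replicates 4 to 6). Midbrain and hindbrain of the Nova1 litters entered through the splicing values only. The sample names give no litter. Wild-type replicates 4 to 6 were assigned to the Nova1 litters because the midbrain and hindbrain samples, taken from these litters only, carry the same numbers. In the Nova2-/- mice, an IRES-Cre cassette was placed at the exon that holds the start codon, in the germline and hence in every cell. The Nova1-/- allele is not described in the sources used here.

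NOVA1 and NOVA2 are RNA-binding proteins of neurons with KH domains that recognise clusters of the short motif YCAY, where Y is C or U (T in the DNA). They control alternative splicing by where they bind: motifs in or just upstream of an exon tend to go with skipping of the exon, and motifs downstream of it with inclusion. Both were first found as targets of antibodies in patients with a paraneoplastic movement disorder, and in the mouse brain NOVA2 is the main NOVA protein of the cortex, whereas NOVA1 is prominent in the midbrain, hindbrain and spinal cord. NOVA proteins are also known to act on an alternative exon of Nova1 itself.

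The loci differ in size. In mm9, with GENCODE vM1 gene models, Nova1 (ENSMUSG00000021047.6) lies at chr12:47795504-47919762 on the minus strand, with 1 transcript of 5 exons and 7000 nt of exon. Nova2 (ENSMUSG00000030411.8) lies at chr7:19510698-19551031 on the plus strand, with 2 transcripts and 9014 nt of exon. Both genes hold a coding exon of 144 nt followed by one of 167 nt. The 144-nt exons, at chr12:47917873-47918016 and chr7:19527565-19527708, are shown because they are the more alike of these exon pairs, with every differing base in capitals.
Nova1 144-nt exon: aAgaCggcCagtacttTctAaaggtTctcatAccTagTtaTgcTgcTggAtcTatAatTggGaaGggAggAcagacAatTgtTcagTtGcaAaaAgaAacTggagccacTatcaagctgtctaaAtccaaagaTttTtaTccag
Nova2 144-nt exon: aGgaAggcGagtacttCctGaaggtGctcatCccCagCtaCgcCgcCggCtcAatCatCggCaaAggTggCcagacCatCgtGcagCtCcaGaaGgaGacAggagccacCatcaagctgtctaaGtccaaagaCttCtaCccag
They shared 110 of 144 bases (76.4%), and 32 of the 34 differences fell on the third position of a codon. The 167-nt exons shared 109 bases (65.3%). The longest stretch without a mismatch between any annotated exons of both genes was 15 nt, which bears on how far reads of 1 paralog could be assigned to the other.

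Nova1 has, after its 167-nt exon, a coding exon of 72 nt (exon 4, 24 codons) at chr12:47814485-47814556, whereas the annotated Nova2 transcripts go from the 167-nt exon straight to the last exon. All 7 Nova1 events lay on the same span, chr12:47795504-47821843, from exon 3 to the end of exon 5, in which exon 4 is the only annotated internal exon. Exon 4 and 114 nt of intron on either side (chr12:47814371-47814670, minus strand) are shown with each YCAY match on the transcribed strand (C or T, then CA, then C or T, and neighbouring matches may overlap) in capitals.
Intron 3 end: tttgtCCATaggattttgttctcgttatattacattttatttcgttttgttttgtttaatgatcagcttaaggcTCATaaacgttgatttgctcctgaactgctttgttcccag
Exon 4: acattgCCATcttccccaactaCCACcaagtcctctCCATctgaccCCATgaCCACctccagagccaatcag
Intron 4 start: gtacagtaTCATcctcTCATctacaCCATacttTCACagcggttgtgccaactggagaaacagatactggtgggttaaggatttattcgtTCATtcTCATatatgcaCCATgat
The exon itself held 5 matches, 3 of them CCAT and 2 CCAC, and none crossed its borders. With 200 nt on either side there were 17 matches in 472 nt, of which 3 were upstream, 5 in the exon and 9 downstream.

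This density was 3.60 YCAY per 100 nt at Nova1 exon 4, against a median of 1.92 over the 192 cassette exons of the event table that were the only annotated exon in their span. Nova1 exon 4 ranked 9 among the 192, and 4.69% of the exons, itself included, were at least as dense. Every one of the 192 windows (100%) held a match and 67.7% of the exons did, so that a single match is common and it is the number that is high. Inside the exon the density was 6.94 per 100 nt, against a median of 1.41, and 5 of the 192 exons, Nova1 included, reached it. The listed events were chosen by the study for YCAY motifs inside sites of NOVA1 or NOVA2 crosslinking to RNA (CLIP clusters), so the comparison exons are not a sample of all cassette exons, and a match is not by itself a binding site.

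**Figure D1:**
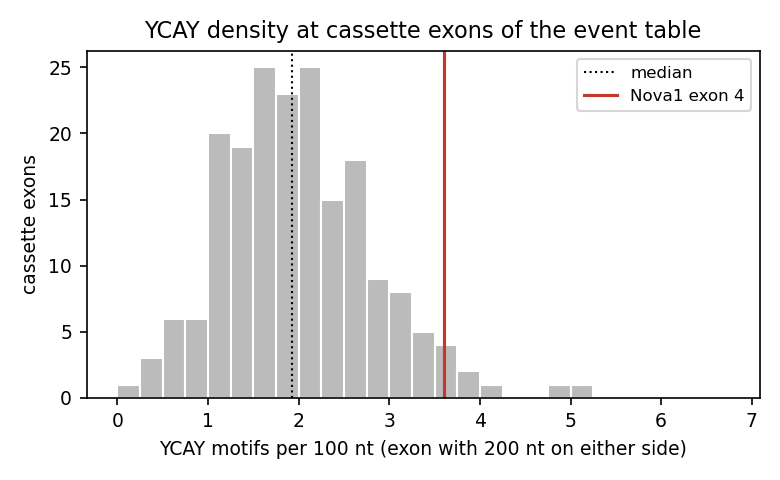
Number of cassette exons (vertical axis) by YCAY matches per 100 nt in the exon with 200 nt on either side (horizontal axis), for 192 exons of the event table. The red line is Nova1 exon 4 at 3.60 and the dotted line the median of 1.92, so Nova1 lies in the upper tail.

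The deposited dI of this span was below 0 in Nova2-/- cortex and in midbrain and hindbrain of Nova1-/- mice. The deposited dI is the inclusion fraction of wild type minus that of the knockout, so that a value below 0 means more inclusion in the knockout. As a check of the sign, all 8 events of Neo1 and all 9 events of Arhgef12, whose exons the study describes as more included in Nova2-/- cortex, were below 0. In Nova2-/- cortex the 4 tandem cassette events of Nova1 (pairs of neighbouring exons) had dI of -0.196, -0.195, -0.177 and -0.173. The 3 single cassette events had dI of -0.169, -0.161 and -0.117. All 7 were thus below 0 with the tandem events the larger in size, but they are readings of the same span and not independent of each other. GENCODE vM1 holds no further exon in the span, so the partner exon of the tandem events cannot be named here.

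These cortex values chose the rows, because the deposited table holds only events past |dI| of 0.1, and they carry no replicates, so they are given with no test. Within that table they were small: the median size was 0.173 for the Nova1 events and 0.223 for all 1991 events, and the Nova1 events ranked between 1148 and 1805 of the 1991 by size.

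In midbrain and hindbrain of Nova1-/- mice the same 7 events had much larger dI. The tandem cassette events had -0.880, -0.883, -0.892 and -0.891, and the cassette events -0.835, -0.848 and -0.727. No event of any other gene reached 0.7 in size there, and the largest was 0.457. Since inclusion cannot exceed 1, dI of -0.892 to -0.727, taken at face value, would hold inclusion in wild-type midbrain and hindbrain to at most 0.108 to 0.273. In the same way, inclusion in wild-type cortex of the Nova2 litters would be at most 0.804 to 0.883. The authors deposited an FDR of 1 for all 7 of these midbrain and hindbrain values, as for 452 of all events. The knockout side of the comparison rests on the transcripts of the deleted gene itself, and the number of reads behind it is not known. Neither the size of these dI nor the limits on wild-type inclusion drawn from them can therefore be given an error.

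In Nova1-/- cortex all 7 Nova1 events had no dI. They were the only events without one among the 1991, and they belong to the gene that was knocked out, for which 3, 1 and 5 counts were left in those mice.

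**Figure D2:**
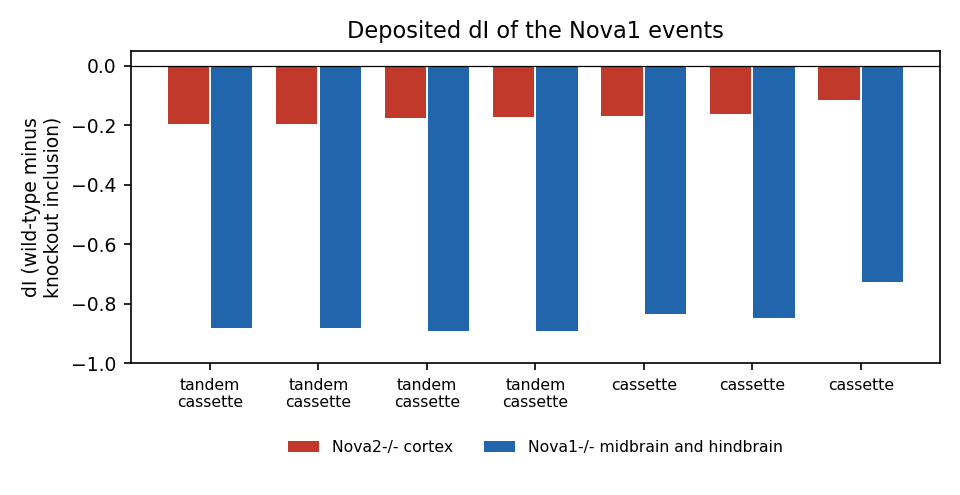
Deposited dI (wild-type minus knockout inclusion fraction, vertical axis) of the 7 Nova1 events in Nova2-/- cortex (red) and in Nova1-/- midbrain and hindbrain (blue). All bars point below 0, from -0.196 to -0.117 in red and from -0.892 to -0.727 in blue. There are no replicates and hence no error bars.

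Messenger RNA levels were taken from the expected counts per gene of the 12 cortices, which had between 16518172 and 31362018 counts in all, and expressed as CPM, the count relative to the library's total, after TMM scaling, a correction of library size that assumes most genes do not change. The dissections carried cortical RNA: 9 markers of cortical projection neurons summed to between 925 and 1215 CPM in every mouse, and 9 markers of midbrain and hindbrain to between 0.542 and 2.17 CPM. Markers of the meninges, which wrap the brain, varied with group. The 18 genes summed to between 267 and 658 CPM in wild type of the Nova2 litters, 999 to 1188 in Nova2-/- mice, 888 to 1098 in wild-type mice of the Nova1 litters and 773 to 907 in Nova1-/- mice. In bulk tissue, fewer cells of a type and less RNA per cell cannot be told apart.

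Nova1 was nearly absent from the Nova1-/- cortices. Its counts were 2011, 1815 and 1301 in wild-type replicates 4, 5 and 6, and 3, 1 and 5 in Nova1-/- replicates 1, 2 and 3. In CPM these were 71.5, 75.8 and 41.5 against 0.112, 0.0341 and 0.211, with means of 62.9 ± 18.7 and 0.119 ± 0.0888 (SD, n = 3 each). The groups lay far apart, and Nova1-/- replicates 1 and 2 did not exceed the level that 3 counts would give in them. The 9 counts left in the knockouts corresponded to 0.184% of the wild-type level, with an exact Poisson 95% interval of 0.0840% to 0.349% that covers counting error only. The log2 fold change was -9.06, a value that depends on the small number added to low counts (standard error, SE, 0.38, adjusted p = 7.94e-07 by the quasi-likelihood test of edgeR). Nova1 had the smallest p of 15901 genes, of which 2 were called (0.0126% at an adjusted p below 0.05, and also 0.0126% under the further limit of 1 in the size of the log2 fold change).

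Nova2 in the Nova2-/- cortices was lowered and not removed. Its counts were 799, 524 and 1220 in wild-type replicates 1 to 3, and 382, 400 and 486 in Nova2-/- replicates 1 to 3. In CPM these were 31.5, 31.0 and 40.9 against 17.0, 18.0 and 21.5, with means of 34.5 ± 5.56 and 18.8 ± 2.36 (SD, n = 3 each). The groups did not overlap, and the knockouts kept 54.6% of the wild-type level. The log2 fold change was -0.87 (SE 0.14, 95% interval -1.20 to -0.55, adjusted p = 0.0373 by the quasi-likelihood test of edgeR), and Nova2 ranked 91 by p among 15691 genes, of which 166 (1.06%) were called. It did not reach the size limit of a log2 fold change of 1, which 41 of the called genes (0.261% of those tested) did. Of the 9014 nt of Nova2 exon, 8458 nt (93.8%) begin with the 144-nt exon, after the targeted one. A count over the whole gene can thus include transcripts of the targeted allele, and it says nothing of the protein. By Western blot, the paper found no NOVA2 protein in the cortex of newborn Nova2-/- mice.

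The call of Nova2 in Nova2-/- cortex was lost in 5 of the 6 fits that left out a mouse. Leaving out wild-type replicate 1 or 2 gave adjusted p = 0.0822 and 0.0975 in edgeR's test, and leaving out Nova2-/- replicate 1, 2 or 3 gave 0.186, 0.138 and 0.102, while without wild-type replicate 3, the highest of the group, it was 0.0091. The fold change stayed between -0.98 and -0.73. Among the 18 meningeal markers the median change was 1.33 on the log2 scale in the same comparison. Of these, 6 were called higher (Col1a1, Dcn, Ogn, Cldn11, Bmp5 and Crabp2), where 1.06% of all genes were called. All 6 endothelial markers were above 0 as well, with a median of 0.45 and 1 called higher. The neuronal marker sum was 4986 to 5365 CPM in Nova2-/- mice against 5444 to 5855 in wild type. The single neuronal markers did not share a direction: of 12 tested, 6 were above 0. Their median was -0.02, with 1 called higher and 0 called lower. Per 1000 counts of these neuronal markers, Nova2 had 5.38, 5.47 and 7.51 counts in wild type and 3.24, 3.35 and 4.31 in Nova2-/- mice, so that the groups did not overlap on this scale either. On this scale the fitted change was -0.75 (adjusted p = 0.0601 in edgeR's test), but the median of all genes was then 0.13.

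**Figure D3:**
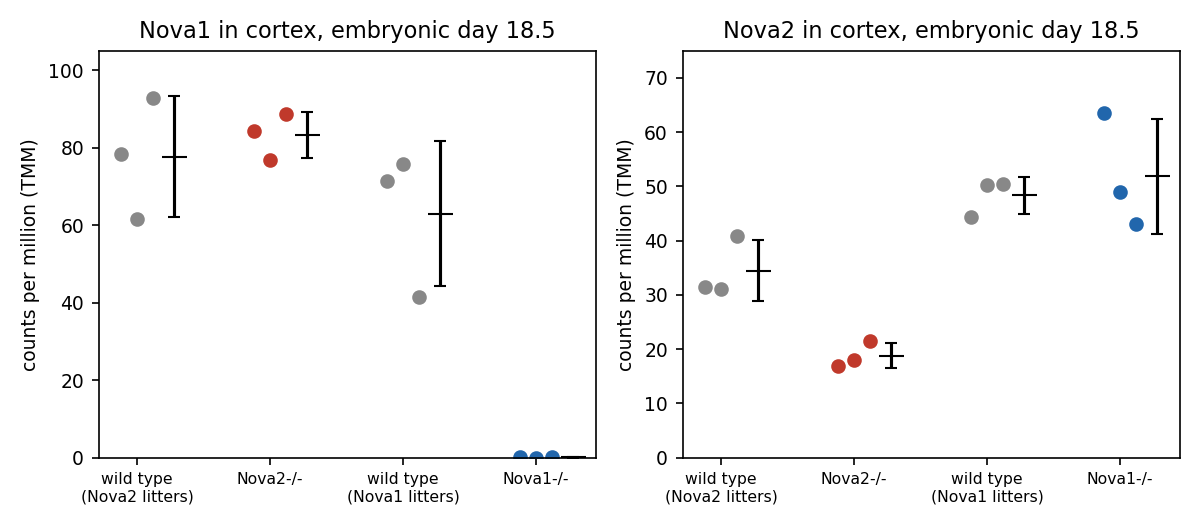
CPM (vertical axes, from 0) of Nova1 (left) and Nova2 (right) in the 12 cortices by genotype and litter. Points are mice and bars the mean ± SD of 3. Nova1 falls to near 0 in Nova1-/- mice, whereas Nova2 in Nova2-/- mice stays between 17.0 and 21.5.

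The RNA of the paralog that was left did not change detectably in either knockout. For protein, the paper reports significantly more NOVA1 in the cortex of newborn Nova2-/- mice, which is another measure at another age. Nova1 was at 78.4, 61.7 and 92.9 CPM in wild-type replicates 1 to 3 and at 84.3, 76.8 and 88.8 CPM in Nova2-/- mice, with means of 77.7 ± 15.6 and 83.3 ± 6.02 (SD, n = 3 each). The groups overlapped completely: every knockout value lay inside the range of the wild-type mice. The log2 fold change was 0.10 (SE 0.14, 95% interval -0.21 to 0.41, adjusted p = 0.724 by the quasi-likelihood test of edgeR), and it turned to -0.03 without wild-type replicate 2, the lowest value. Changes between the bounds of the interval could not be told from none in these 6 mice.

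Nova2 was at 44.4, 50.2 and 50.5 CPM in the wild-type mice of the Nova1 litters and at 63.6, 48.9 and 43.0 CPM in Nova1-/- mice, with means of 48.4 ± 3.40 and 51.8 ± 10.6 (SD, n = 3 each). Knockout replicate 1 was above the wild-type mice, replicate 2 was among them and replicate 3 was below. The log2 fold change was 0.10 (SE 0.12, 95% interval -0.16 to 0.36, adjusted p = 0.890 by the quasi-likelihood test of edgeR), and it turned to -0.07 without Nova1-/- replicate 1.

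The changes of both genes differed between the knockouts. Each gene is the target of 1 knockout, so this contrast largely repeats the comparisons above. For Nova2, the change in Nova2-/- minus that in Nova1-/- cortex was -0.98 on the log2 scale (SE 0.21, 95% interval -1.43 to -0.54, adjusted p = 0.0286 by the quasi-likelihood test of edgeR). For Nova1 it was 9.15 (SE 0.45, adjusted p = 2.24e-07 by the same test). Of 16210 genes, 296 (1.83%) were called in this contrast. The result for Nova2 was lost in 7 of the 12 fits that left out a mouse: without Nova2-/- replicate 1 or 2, wild-type replicate 4, 5 or 6, or Nova1-/- replicate 1 or 2, the adjusted p of edgeR's test was between 0.0597 and 0.0892.

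The wild-type mice were not alike across litters, and for Nova2 the separation was complete. The wild-type mice of the Nova1 litters (44.4 to 50.5 CPM) all lay above those of the Nova2 litters (31.0 to 40.9 CPM). The log2 difference was 0.48 (SE 0.12, 95% interval 0.21 to 0.76, unadjusted p = 0.00339), but it missed the threshold (adjusted p = 0.0682 by the quasi-likelihood test of edgeR), where 483 of 15918 genes (3.03%) passed. Without wild-type replicate 3 it was 0.63 with adjusted p = 0.000359, while the other 5 fits that left out a mouse gave adjusted p between 0.143 and 0.251 in edgeR's test. Nova1 went the other way, with a log2 difference of -0.31 (SE 0.22, adjusted p = 0.467 in edgeR's test), and there the ranges overlapped, with replicate 6 (41.5 CPM) below all other wild-type mice. Without replicate 6 the difference of Nova1 was -0.08. Litter, handling and sequencing cannot be told apart in this comparison. The meningeal markers differed here as well, with a median log2 difference of 1.04 and 6 of 18 called higher, and their part in the Nova2 values was not tested. Per 1000 neuronal marker counts, Nova2 had 8.29, 9.38 and 9.47 counts in replicates 4 to 6, all above the 5.38, 5.47 and 7.51 of replicates 1 to 3.

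Ordered by mean level, Nova1 was highest in Nova2-/- cortex, then in wild type of the Nova2 litters, wild type of the Nova1 litters and Nova1-/-. Among the first 3 of these groups, neighbours in this order overlapped, whereas Nova1-/- lay below all of them. Nova2 ran from Nova1-/- through wild type of the Nova1 litters and wild type of the Nova2 litters to Nova2-/-, and here only the first pair of neighbours overlapped. Per kilobase of annotated exon, Nova1 had mean levels of 11.1, 8.99 and 11.9 CPM in wild type of the Nova2 litters, wild type of the Nova1 litters and Nova2-/- cortex. On the same scale Nova2 had 3.83, 5.37, 2.09 and, in Nova1-/- cortex, 5.75 CPM.

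Within each mouse the counts of the paralogs can be set against each other without any scaling. Nova1 had 2.49, 1.99 and 2.27 counts per Nova2 count in wild-type replicates 1 to 3, and 4.96, 4.28 and 4.13 in Nova2-/- replicates 1 to 3. In the Nova1 litters the ratio was 1.61, 1.51 and 0.822 in wild-type replicates 4 to 6, so that replicate 6 alone had more Nova2 than Nova1 counts. In Nova1-/- mice it was 0.00176, 0.000696 and 0.00491. Per kilobase of exon the wild-type ratios were 2.90 ± 0.323 and 1.69 ± 0.552 and the Nova2-/- ratio 5.74 ± 0.567 (SD, n = 3 each), and per kilobase replicate 6 was at 1.06. By RNA, Nova1 was thus not below Nova2 per kilobase in any wild-type cortex, whereas the paper's staining found NOVA2 high and NOVA1 low there. RNA and protein are different measures, the counting annotation is unknown, and the difference was not tested.

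The ratios did not overlap between the groups in any of these comparisons. The mean log2 ratio was higher by 0.99 in Nova2-/- than in wild-type mice, and it differed by -9.12 between Nova1-/- and wild-type mice and by -0.83 between the wild-type mice of the Nova1 and Nova2 litters. The exact two-sided permutation test gave p = 0.1 for each, the smallest p that 3 against 3 mice allow. In the Nova2 litters the CPM of Nova1 overlapped between the genotypes, whereas that of Nova2 did not.

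**Figure D4:**
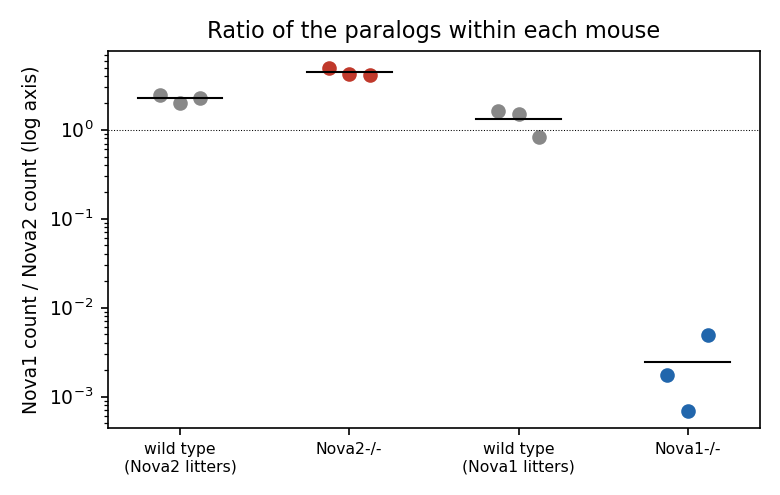
Nova1 counts divided by Nova2 counts in each mouse (vertical log axis) by genotype and litter. Points are mice and lines group means (n = 3), and the dotted line is a ratio of 1. Nova2-/- mice sit between 4.13 and 4.96, wild-type mice between 0.822 and 2.49, and Nova1-/- mice at 0.00491 or less.

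Both null alleles were made in another strain and backcrossed to CD1. Genes next to a targeted allele travel with it in a backcross, and they were therefore read in the knockout of their neighbour. Of the 10 protein-coding genes nearest to Nova2, 5 passed the filter on low counts and 1 was called. Pglyrp1, a peptidoglycan-binding protein of innate immunity whose gene lies 34.9 kb from Nova2, fell from 2.78 ± 0.189 to 0.877 ± 0.252 CPM (SD, n = 3 each), or -1.65 on the log2 scale (SE 0.28, adjusted p = 0.0379 by the quasi-likelihood test of edgeR). Ccdc61, the nearest on that side at 14.9 kb, had -0.45 and Mill2 had 1.36, with adjusted p of 0.217 and 0.192. Ccdc61 went from 8.10 ± 1.68 to 5.90 ± 0.438 CPM. Mill2 was low in both groups, at 0.417 ± 0.295 and 1.11 ± 0.0949 CPM, and DESeq2 gave it no adjusted p. Leaving out wild-type replicate 1 or 2 gave Pglyrp1 an adjusted p of 0.115 and 0.116 in edgeR's test, and leaving out Nova2-/- replicate 1, 2 or 3 gave 0.191, 0.130 and 0.136, with fold changes between -1.88 and -1.46. With the replicate number as a block in the fit, Pglyrp1 had -1.68 (adjusted p = 0.0526 in edgeR's test). Without wild-type replicate 3 all of Pglyrp1, Ccdc61 and Mill2 were called (3 of the neighbours, by edgeR's test), in a fit that called 1433 of all genes (9.03%), against 166 with every mouse. Ccdc61 passed there only narrowly (adjusted p = 0.04997 in edgeR's test). These 3 genes on the same side of Nova2 had an unadjusted p below 0.05, as 3005 of all 15691 genes did. On the other side Mypop had 0.21 and Irf2bp1 -0.02, while Nanos2, Foxa3, Psg17 and Psg19 were too low to test and Gm10676 was not in the table.

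Nova1 stands in a gene-poor stretch, with its nearest protein-coding neighbours more than 1620 kb away. Of its 10 neighbours, 8 were tested in Nova1-/- cortex and 0 were called, and 1 had an unadjusted p below 0.05. Of all 15901 genes, 2 were called and 1183 (7.44%) had an unadjusted p below 0.05, so these counts say nothing particular of the neighbours. The 1 gene was Prkd1, a protein kinase D whose gene lies 3522 kb from Nova1. It had 16.0 ± 0.840 CPM in wild type and 23.4 ± 0.725 CPM in Nova1-/- mice (SD, n = 3 each), or 0.55 on the log2 scale (SE 0.08, unadjusted p = 3.22e-05, adjusted p = 0.171 in edgeR's test), and ranked 3 by p among 15901 genes. DESeq2 and edgeR's classic exact test called Prkd1 with adjusted p of 0.000565 and 8.91e-05, where they called 0.214% and 0.34% of all genes. Stxbp6, Nrcam, Pnpla8, Dnajb9, Lrrn3 and 3110039M20Rik were between -0.09 and 0.10, and Gm1818 and Gm9804 were not in the table.

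**Figure D5:**
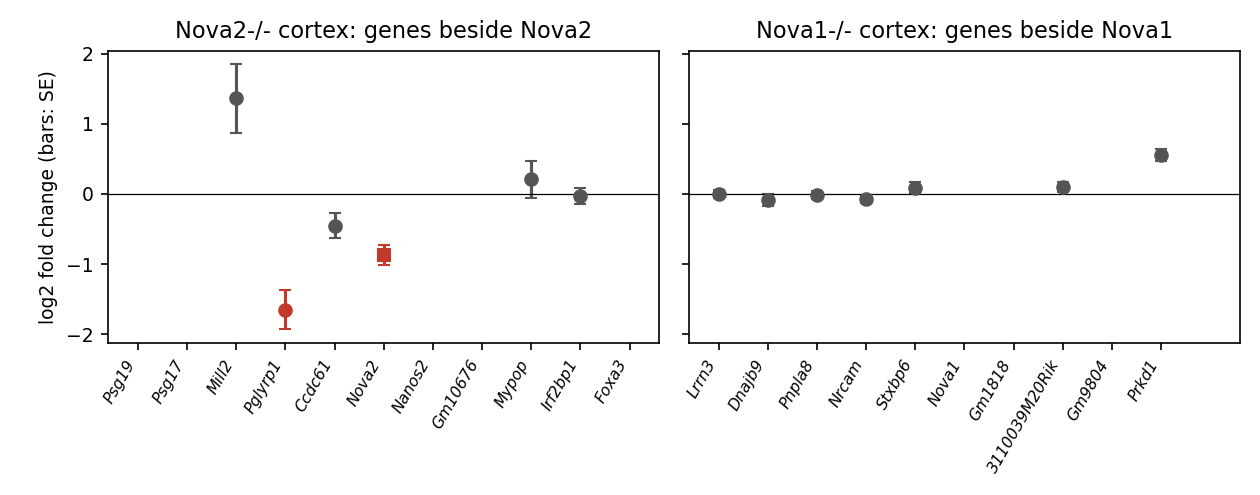
Log2 fold change (vertical axis, bars are standard errors) of protein-coding genes on either side of Nova2 in Nova2-/- cortex (left, 5 on each side) and of Nova1 in Nova1-/- cortex (right, 5 and 4), in chromosome order. Red marks an adjusted p below 0.05 and the square is Nova2, Nova1 itself is not drawn, and names without a point were not tested. Pglyrp1 at -1.65 lies below Nova2 at -0.87.

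The counts of called genes did not set other KH domain genes apart from the background in either knockout. All 33 listed KH domain RNA-binding genes were tested, and their median change on the log2 scale was 0.07 in Nova2-/- and -0.01 in Nova1-/- cortex, against 0.01 and 0.00 over all genes. By edgeR's quasi-likelihood test 0 were called in either, where 1.06% and 0.0126% of all genes were called, a share that gives less than 1 call in a list of this size. Of the 33, 5 higher and 3 lower in Nova2-/-, and 0 higher and 3 lower in Nova1-/- cortex, had an unadjusted p below 0.05, as did 19.2% and 7.44% of all genes. DESeq2 and edgeR's classic exact test each called 2 of them, Igf2bp1 and Igf2bp2, higher in Nova2-/- and 0 in Nova1-/- cortex. These tools called 846 (5.39%) and 621 (3.96%) of all genes in Nova2-/- cortex, so 2 of 33 is near the background. The most abundant were Hnrnpk, Fubp1 and Qk, regulators of RNA processing, with log2 fold changes of -0.12, 0.13 and 0.05 in Nova2-/- and 0.10, -0.12 and -0.00 in Nova1-/- cortex. Between the wild-type litters, 1 KH domain gene was called higher (Pcbp2, 0.44) and 2 lower (Hnrnpk, -0.33, and Mex3d, -0.58). With every mouse, 483 of all 15918 genes (3.03%) were called there. At an unadjusted p below 0.05 in edgeR's test, 7 of the 33 were higher and 6 lower, beside 3355 of all 15918 genes. By either count the share of the list was above that of all genes in this comparison of litters, a difference that was not tested. On leaving out any mouse but wild-type replicate 3, only 3 to 92 of all genes were called.

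Genes known as splicing targets of NOVA were too few for a count of calls to be read against the same background. Of 10 such genes, 0 were called in either knockout by edgeR's quasi-likelihood test, by DESeq2 or by edgeR's classic exact test, and 1 higher and 3 lower in Nova2-/- and 0 in Nova1-/- cortex had an unadjusted p below 0.05, beside the 19.2% and 7.44% of all genes. Neo1, an axon guidance receptor, Agrn, the organiser of the neuromuscular junction, and Epha5, an ephrin receptor, had -0.12, 0.25 and 0.17 in Nova2-/- and 0.06, 0.03 and 0.02 in Nova1-/- cortex. Of these 10 genes, 7 held 32 rows of the event table, which covers 539 genes, beside 23038 in the count table. Their median size of dI was 0.419 in Nova2-/- cortex, where the Nova1 events had 0.173. The genes were listed as known targets and the event table holds only events changed in Nova2-/- cortex. Neither the count nor the size is therefore a test. Of 18 other splicing regulators of neurons, 0 were called in either knockout by edgeR's quasi-likelihood test, with 2 higher in Nova2-/- and 0 in Nova1-/- cortex at an unadjusted p below 0.05, again beside 19.2% and 7.44% of all genes. DESeq2 and the classic exact test each called 1, Mbnl2, higher in Nova2-/- and 0 in Nova1-/- cortex, a share of 18 near the 5.39% and 3.96% over all genes. Rbfox2, Ptbp2 and Celf2 were the most abundant, with -0.03, -0.05 and 0.28 in Nova2-/- and 0.03, 0.07 and 0.01 in Nova1-/- cortex. Events were listed for 5 of the 18 (Celf1, Celf2, Elavl2, Rbfox1 and Rbfox2), 24 in all, and among the KH domain genes Ankhd1 had 2. These counts too come from a table limited to events changed in Nova2-/- cortex.

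Across the 9 mice that were not Nova1-/-, the genes whose log2 CPM ran most like that of Nova1 were Rbbp8 (r = 0.892), Dpf3 (0.890), Socs6 (0.872), Ppp1r10 (0.865) and Rftn1 (0.863) among 10314 genes. Across the 9 mice that were not Nova2-/-, genes that ran like Nova2 included Ptprg (r = 0.986), Vamp2 (0.977) and Meg3 (0.976), which held ranks 2, 3 and 5 among 10299 genes. These are descriptions of points that share litters and libraries. With each group's mean removed, Rbbp8 fell to rank 24 for Nova1 (r = 0.866) and Ptprg to rank 45 for Nova2 (r = 0.963).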

How the data were processed

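Total RNA of cortex (and of midbrain and hindbrain of the Nova1 litters) was extracted with Trizol, depleted of ribosomal RNA and sequenced as paired-end TruSeq libraries. The authors aligned reads to mm10 with OLego, an aligner for spliced reads, moved splicing coordinates to mm9 and used edgeR. The counting program and annotation are not given in the sources used here. The authors deposited expected counts per gene, without normalization, for 12 cortices, and a table of events in which dI is a difference score and FDR an adjusted p-value, limited to events changed in Nova2-/- cortex. It gives 1 value per comparison, without replicates or depth. The authors' own log2 fold change and FDR columns for gene abundance were not used. Gene levels of midbrain and hindbrain were not used here.

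Expected counts were rounded to whole numbers and fitted with edgeR 4.0.16 in R 4.3.3 (TMM, filterByExpr, quasi-likelihood test, Benjamini-Hochberg adjustment over all genes tested, threshold 0.05), each knockout with its wild-type littermates. Intervals of fold changes use the test's SE and its moderated degrees of freedom. Wild-type mice were assigned to litters from their numbers and the paper's methods, which call the 3 samples of a genotype biological replicates. Scripts were tested on simulated data. CPM used TMM over the 12 cortices. The Poisson interval of the counts left in Nova1-/- mice and the floor of 3 counts cover counting error only. Gene models are GENCODE vM1, sequences NCBIM37 (mm9), and the build of the counting annotation is unknown, so levels per kilobase are approximate. Named genes were Nova1 and Nova2, the 5 genes most alike in level at a mean of at least 10 CPM, the 5 protein-coding neighbours on either side, and of each gene list the called members and the 3 with the highest CPM. A few genes that this rule names are not reported here. The members, lists and tests were chosen with earlier results of these data known. Alternatives were DESeq2 1.42.0, edgeR's classic exact test, other filters and scalings, all 12 mice in 1 fit, a further limit on the fold change, a replicate block, leaving out each mouse, other offsets of the ratio and a narrower motif window. An exact permutation test was added after the data had been seen.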

Additional observations from a re-analysis of the deposited data

Results flagged for a closer look

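Both paralogs were marked for a closer look because their change differed between the knockouts in a test of the difference itself. The change of Nova1 in Nova2-/- minus that in Nova1-/- cortex was 9.15 on the log2 scale, and that of Nova2 was -0.98. Each is the targeted gene of 1 of the knockouts. With 3 mice per group, no group was large enough to be searched for a single outlying mouse.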

How the results depend on the processing

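Of 211 recomputed results, 148 kept their direction and their side of the threshold, or stayed within 1.5 times a count, and 63 did not. The direction turned in 2 of the 60 fold changes of Nova1 and Nova2 refitted without 1 mouse, both for a paralog that was not called, and under 0 of the other settings. The reversals were Nova1 in Nova2-/- cortex without wild-type replicate 2 (-0.029) and Nova2 in Nova1-/- cortex without Nova1-/- replicate 1 (-0.069). Leaving out a mouse gave a range of -0.98 to -0.73 for Nova2 and -0.029 to 0.25 for Nova1 in Nova2-/- cortex, -0.069 to 0.22 for Nova2 and -9.69 to -8.59 for Nova1 in Nova1-/- cortex, 0.42 to 0.63 and -0.48 to -0.08 between the wild-type litters, and -1.10 to -0.80 and 8.69 to 9.78 for the difference of the changes. With 3 mice per group, each of these fits left 2 mice in a group, and the number of genes called ran from 7 (without Nova2-/- replicate 2) to 1433 (without wild-type replicate 3) in Nova2-/- cortex, from 1 to 10 in Nova1-/- cortex, from 3 (without wild-type replicate 4) to 3561 (without wild-type replicate 3) between the wild-type litters and from 113 to 1005 for the difference of the changes. The log2 ratio of the paralogs ranged from 0.90 to 1.06, from -9.75 to -8.56 and from -1.01 to -0.52.

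Nova2 in Nova2-/- cortex was no longer called with library sizes set to neuronal marker counts (-0.75), with a fold change limit (-0.87, also -0.98 for the difference of the changes) or by the added exact permutation test (-0.85, p = 0.1, the smallest possible). Between the wild-type litters Nova2 was called by DESeq2 (0.48, adjusted p = 0.00689) and by edgeR's classic exact test (0.48, adjusted p = 0.0209). Over the alternatives that left no mouse out, the adjusted p of Nova2 ranged from 3.37e-06 to 0.0601 in Nova2-/- cortex and from 0.00689 to 0.0695 between the wild-type litters, and for Pglyrp1 DESeq2 gave 0.000970. The cause was not tested. Genes called in Nova2-/- cortex numbered 846 with DESeq2, 621 with the exact test, 1334 with all 12 mice in 1 fit, 349 with neuronal library sizes and 41 with the fold change limit. In Nova1-/- cortex they numbered 34 with DESeq2, 54 with the exact test and 1 with at least 10 counts in every mouse, a filter that removes Nova1. Between the wild-type litters they numbered 1333, 1150 and, with all mice, 1590, and 103 with the limit, and for the difference of the changes 851 with DESeq2, 1217 with neuronal library sizes and 113 with the limit. The YCAY density at Nova1 exon 4 was 4.41 per 100 nt with 100 nt on either side, against a median of 1.89, and r of Rbbp8 with Nova1 and of Ptprg with Nova2 was 0.866 and 0.963 after removal of group means.

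Same-numbered wild-type and Nova2-/- mice had correlated deviations of 0.119, 0.0293 and 0.200, and mice of different numbers -0.217 to 0.140. With 3 mice per group, these values cannot decide whether mice that share a number are pairs. With that number as a replicate block, Nova2 had -0.87 (adjusted p = 0.0194), Nova1 had 0.12 (adjusted p = 0.426) and 220 genes were called by edgeR's test, while Pglyrp1 had adjusted p = 0.0526. Depth limits the Nova1 value in Nova1-/- mice, where at most 5 counts were seen, and no read numbers are known behind dI.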
